A study of Mus musculus with 36 samples.

Results

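This comparison set RAW264.7 cells exposed to the peptide 65–79*SE together with Il-4 against cells labelled PBS, using replicates 1–3 of each group. The libraries were taken by their labels from the Il-4 count table, and they number 6 of the 36 libraries of the study. RAW264.7 is a single line of mouse macrophages grown in DMEM, so all libraries share one genotype. The peptide 65–79*SE holds residues 65–79 of an HLA-DRβ chain with the shared epitope, a motif of HLA-DRB1 alleles associated with rheumatoid arthritis, and 65–79*PE is the matching peptide with the protective epitope. The SE cells received the peptide at 100 µg/ml and Il-4 at 5 ng/ml for 72 h. The PBS cells carry PBS as their treatment and the same 72 h, although their titles also name the cytokine of the table. Replicates 1–3 of 65–79*PE with Il-4, at the same doses and time, entered the fit to share the estimate of the spread. No group of these 9 libraries had Il-4 without a peptide or a peptide without Il-4, so the parts of the cytokine and of the peptide in a difference from PBS cannot be told apart.

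Il-4 binds a receptor built from Il4ra with Il2rg or Il13ra1, and the kinases Jak1 and Jak3 then activate the transcription factor Stat6. In macrophages this program, called alternative activation or M2 polarization, is known for arginase, mannose receptor and galactose-type lectins, and for lower output of the inflammatory cytokines that mark M1 cells. Stat6 prefers a palindrome, TTC and GAA with 4 bases of any kind between them, whereas most other Stat proteins prefer a spacer of 3 bases.

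The promoters of 4 genes with large rises are shown first, 3 picked because they hold this palindrome and Mgl2 because it does not. Of the 12 largest rises named further on, 11 had an entry in the promoter table and these 3 held it, and of the 12 largest falls 10 had an entry and 2 held it, Nlrp3 and Dst. Each run holds the bases before the gene's start in RefSeq (GRCm38.p6), read 5′ to 3′ on the gene's own strand, and capitals mark each match to the palindrome with the spacer of 4 bases, which reads the same on both strands. Itgax (chr7:128129300-128129549, plus strand) encodes the integrin Cd11c, Tmem26 (chr10:68723496-68723745, plus strand) a membrane protein, Clec7a (chr6:129472780-129473029, minus strand) the β-glucan receptor Dectin-1, and Mgl2 (chr11:70130107-70130356, plus strand) a galactose-type lectin.
Itgax: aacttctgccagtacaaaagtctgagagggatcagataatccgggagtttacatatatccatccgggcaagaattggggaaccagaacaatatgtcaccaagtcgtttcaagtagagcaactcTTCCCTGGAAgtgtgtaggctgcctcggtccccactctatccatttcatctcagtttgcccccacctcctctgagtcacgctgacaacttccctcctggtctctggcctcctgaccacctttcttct
Tmem26: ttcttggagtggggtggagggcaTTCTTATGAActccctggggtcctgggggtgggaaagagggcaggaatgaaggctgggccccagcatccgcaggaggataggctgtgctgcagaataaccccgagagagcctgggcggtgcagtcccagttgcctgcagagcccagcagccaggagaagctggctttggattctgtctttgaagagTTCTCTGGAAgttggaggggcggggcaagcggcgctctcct
Clec7a: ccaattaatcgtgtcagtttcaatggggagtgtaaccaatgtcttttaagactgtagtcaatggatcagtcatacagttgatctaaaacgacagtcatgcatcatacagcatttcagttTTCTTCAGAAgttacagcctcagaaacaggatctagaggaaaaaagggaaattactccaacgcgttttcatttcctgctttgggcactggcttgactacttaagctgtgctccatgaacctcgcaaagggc
Mgl2: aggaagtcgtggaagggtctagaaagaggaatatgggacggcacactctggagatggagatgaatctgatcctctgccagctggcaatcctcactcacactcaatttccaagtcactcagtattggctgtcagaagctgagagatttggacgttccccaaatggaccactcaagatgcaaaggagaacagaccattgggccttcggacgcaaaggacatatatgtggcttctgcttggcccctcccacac
The match begins 127 bases before the start in Itgax, 227 and 41 bases before it in Tmem26 and 131 bases before it in Clec7a, and the window of Mgl2 holds none. Over the genes tested, 9004 of 12350 had an entry in the promoter table, some of them with several windows. A window runs from 250 bases before to 50 bases after the start. In 597 of these genes (6.63%) any window held the palindrome with 4 spacer bases. The share was 9.35% (23 of 246) for genes called higher and 5.65% (17 of 301) for genes called lower. The palindrome with 3 spacer bases, counted separately although matches to both may overlap, was held by 8.1% of all tested genes with an entry, 6.1% of those called higher and 6.98% of those called lower. These shares are descriptions of letters in a window and were not tested.

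The 6 libraries held 23.9 to 26.5 M counts, and a count of 0 allowed up to 0.113 to 0.125 CPM (counts scaled to the library size), counting error only. All 13 macrophage markers were present, with a summed level of 12100 to 14400 CPM in PBS and 12100 to 14800 CPM in SE, while the 7 epithelial markers were at 0 and the 10 granulocyte and 8 dendritic cell markers summed to no more than 2.1 CPM. Replicate 1 of each group stood apart from replicates 2 and 3 on the second principal component (23.2% of the variance), whereas the first (46.2%) parted PBS from both peptide groups. PBS and SE also differed in a way that followed transcript length. With the tested genes cut into 5 bins of equal size by exon length, the median of the shortest bin lay below that of the longest, relative to the mean of the 9 libraries of the fit, by 0.16, 0.27 and 0.34 on the log2 scale in PBS 1, 2 and 3, and 0.01, 0.33 and 0.13 above it in SE 1, 2 and 3. Ribosomal protein genes took 6.38% to 6.52% of the counts in PBS and 7.23% to 9.49% in SE. Values are therefore also given after a smooth trend in length and GC content was removed from each library, an alternative chosen after these data were seen.

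In 65–79*SE with Il-4, 14 genes that mark alternative activation were higher than in PBS, for example Mgl2 by 194-fold and Mrc1 by 22-fold. Single inflammatory genes such as Tlr2 and Nlrp3 were lower, while most members of the inflammatory lists were not called. In all, 379 genes were upregulated (3.07% of the 12350 tested) and 416 were downregulated (3.37%) at an adjusted p under 0.05 and a fold over 1.5 (edgeR quasi-likelihood test, Benjamini-Hochberg). The genes called either way were 6.44% of those tested. The 3 SE and 3 PBS libraries did not overlap for 780 of these 795 genes, as the call almost requires, and for 34.5% of all genes tested. The counts moved with single replicates. Leaving out replicate 1 of all 3 groups gave 1904 called genes, and leaving out replicate 2 or replicate 3 gave 27 and 35. Without SE 1, SE 2 or PBS 1, PBS 2 or PBS 3 the count was 1572, 337, 1025, 345 and 329, and without SE 3 it was 597. Of the 795 genes, 238 (138 higher, 100 lower) were called in the same direction in all 6 fits that left out 1 of these libraries.

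**Figure D1:**
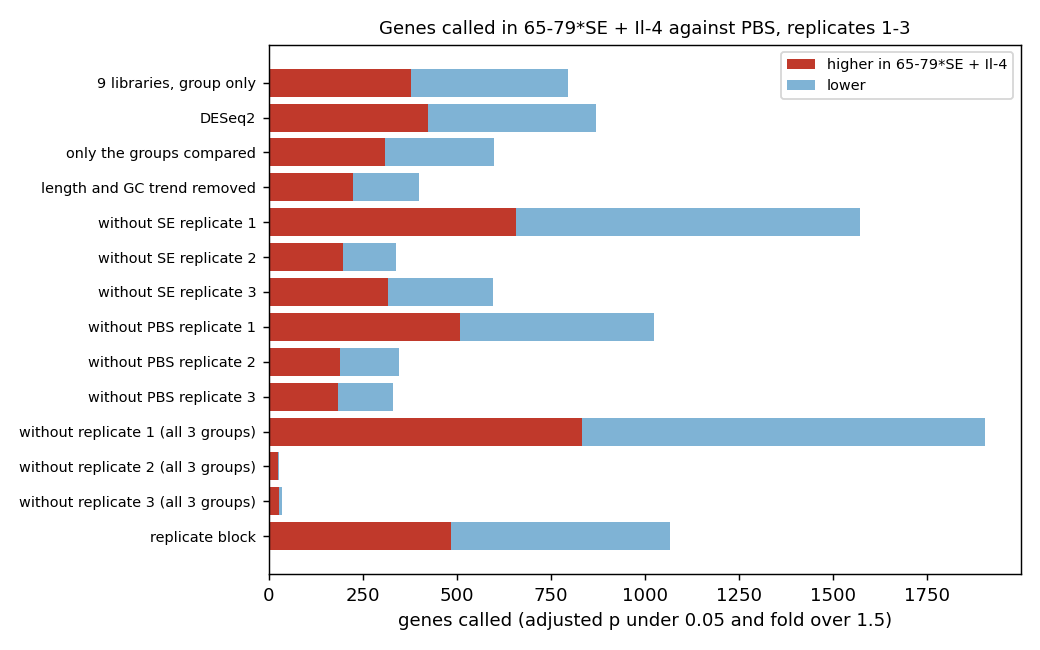
Bars give the number of genes called in 65–79*SE with Il-4 against PBS, split into higher (red) and lower (blue), for the fit of 9 libraries and for alternatives on the vertical axis. The total ran from 27 genes without replicate 2 of all 3 groups to 1904 without replicate 1.

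Most of the effector genes of Il-4 that could be tested rose. Of 30 listed genes 17 passed the filter on low counts, 14 of these rose, none fell, and their median log2 fold change was 2.41, against -0.02 over all genes tested. Members such as Arg1 and Slc7a2 passed that filter only through the libraries with Il-4, so these counts and the median describe the tested members and are no support for the list as a whole. With at least 10 counts required in every library, 9 members were called. Where no PBS library held more than 3 counts of a gene the fold is a lower bound. For Arg1 and Slc7a2 the bounds of 5.74 and 5.47 on the log2 scale lie above the median, so using them could not move it. With the length and GC trend removed the median was 2.43 with the same number of members higher. Without replicate 2 or replicate 3 of all groups, 7 and 8 members were called, none of them lower.

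Mgl2, a galactose-type lectin of M2 macrophages, had 0.276, 0.194 and 0.36 CPM in PBS 1, 2 and 3 and 64.4, 48.8 and 51.5 CPM in SE 1, 2 and 3. Every SE library stood far above every PBS library in this gene. Its log2 fold change was 7.60 ± 0.22 (standard error, as for each ± after a log2 fold change below, n = 3 libraries per group, adjusted p = 1.15e-08). The related lectin Clec10a moved from 39.4, 43 and 36.2 CPM in PBS to 141, 149 and 162 CPM in SE (1.93 ± 0.10, adjusted p = 1.58e-06), with narrow ranges in both groups. Mrc1, the macrophage mannose receptor, stood at 1.34, 1.82 and 1.76 CPM in PBS and at 48.4, 28.9 and 31.6 CPM in SE (4.46 ± 0.27, adjusted p = 6.78e-06). In Mrc1, as in Igf1, Itgax, Tmem26 and Clec7a, SE 1 was the highest of the 3 SE libraries.

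Arg1, the arginase that turns arginine into ornithine, was at 0, 0 and 1 counts in PBS 1, 2 and 3 and reached 8.35, 4.45 and 5.48 CPM in SE. Against the floor of 3 counts per library, it was at least 53.4-fold higher. Slc7a2, a transporter of arginine and other cationic amino acids, had 0 counts in every PBS library and 6.82, 3.48 and 4.86 CPM in SE, at least 44.3-fold higher. In the list of arginine and polyamine metabolism 4 of 19 tested members rose and none fell, namely these 2 genes with Ass1, which makes argininosuccinate (0.94 ± 0.16, adjusted p = 0.00651), and Arg2, the mitochondrial arginase (0.70 ± 0.19, adjusted p = 0.0293, and 0.102 with the trend removed, the call being lost also in 5 of the 6 fits without 1 SE or PBS library). The list's median of -0.02 was that of all genes tested, so the rises did not extend over the list.

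The other effector genes that rose belong to several functions. Il4i1, a secreted amino acid oxidase, went from 0.394, 0.427 and 0.395 CPM in PBS to 13.3, 15.7 and 24.2 CPM in SE (5.43 ± 0.27, adjusted p = 1.58e-06). The elastase gene Mmp12 had 1.42, 0.427 and 0.18 CPM in PBS against 55.4, 39 and 35.5 CPM in SE (6.02 ± 0.69, adjusted p = 0.000864), and its fold change had one of the wider errors of the group. Igf1, a growth factor made by repair macrophages, had 79.8, 32.6 and 30.9 CPM in PBS and 555, 393 and 273 CPM in SE (3.09 ± 0.37, adjusted p = 0.0011). Replicate 1 was the highest library of its group for Igf1 in PBS as well as in SE. The vascular growth factor receptor Flt1 rose by 3.16 ± 0.31 (adjusted p = 0.000324), the T cell inhibitory ligand Pdcd1lg2 by 2.41 ± 0.39 (adjusted p = 0.00536), Ptgs1, the constitutive cyclooxygenase, by 1.84 ± 0.35 (adjusted p = 0.00845) and the fatty acid and lipoprotein receptor Cd36 by 0.96 ± 0.28 (adjusted p = 0.0385). Cd36 was called in 12 of 19 alternatives and not in every fit without 1 SE or PBS library. Tgm2 (-0.28 ± 0.20, adjusted p = 0.335), Alox15 (-0.13 ± 0.32, adjusted p = 0.807) and Cd200r1 (0.03 ± 0.26, adjusted p = 0.94) did not pass the test. Of the untested members, Ccl17, a chemokine of M2 cells, had 0 counts in all 6 libraries, and Chil3, the gene of Ym1, was at 0 CPM in PBS and at 0, 0.0441 and 0.0419 CPM in SE, under the floor, so no change of these M2 genes was detectable at this depth.

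By the rule on size and level, the 12 largest rises among genes with a mean of at least 10 CPM and groups that did not overlap also held Itgax (3.49 ± 0.40, adjusted p = 0.00082), Tmem26 (2.32 ± 0.35, adjusted p = 0.00356), Clec7a (2.20 ± 0.35, adjusted p = 0.00454), the coagulation factor gene F10 (1.99 ± 0.16, adjusted p = 6.21e-05), the complement gene C3 (1.79 ± 0.23, adjusted p = 0.00162) and the small GTPase gene Arl4c (1.67 ± 0.25, adjusted p = 0.00356). Itgax had 8.55, 5.2 and 4.96 CPM in PBS and 88.9, 55.8 and 65.4 CPM in SE. F10 was even across libraries, with 19.2, 18.3 and 15.9 CPM in PBS and 71.2, 72.3 and 68.2 CPM in SE. All 12 rises stayed past an adjusted p of 0.05 when 1 SE or PBS library was left out and when the length and GC trend was removed. Mgl2, Mrc1, F10 and Clec10a also stayed past it without replicate 2 or replicate 3 of all groups, and the other 8 lost it in at least 1 of those fits, Tmem26 for example with an adjusted p of up to 0.103.

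**Figure D2:**
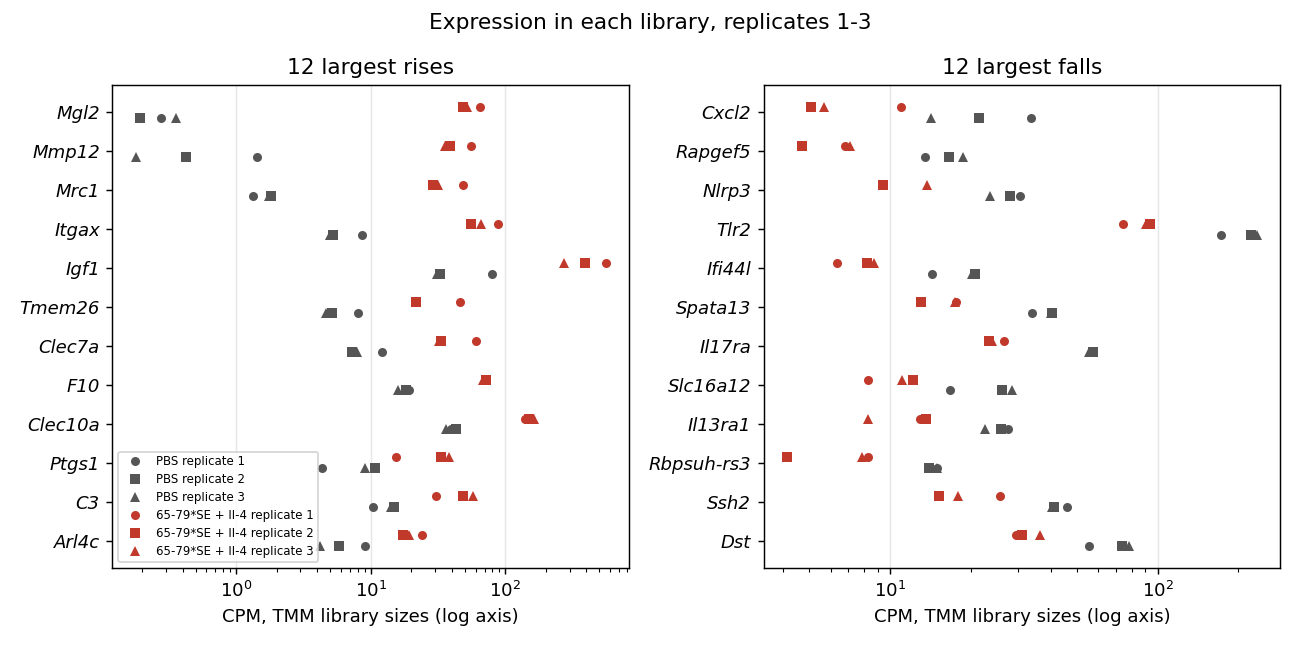
Each point is 1 library, with CPM on a log axis, grey for PBS and red for 65–79*SE with Il-4, and the shape gives the replicate number. The groups did not overlap for any of these genes, which the naming rule required, and the gap was widest for Mgl2 (0.194 to 0.36 CPM against 48.8 to 64.4 CPM).

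In the list of the Il-4 receptor and its signalling, the inhibitor genes Cish and Socs1 rose and the receptor genes Il13ra1 and Il4ra fell. Cish, an inhibitor of cytokine receptor signalling, had 2, 0 and 1 counts in PBS and 10.1, 7.22 and 10 CPM in SE, at least 79.7-fold higher. Socs1, an inhibitor of Jak kinases, had 0.907, 0.543 and 0.755 CPM in PBS and 4.38, 3.22 and 4.69 CPM in SE (2.47 ± 0.25, adjusted p = 0.0004). The receptor chain Il13ra1 went from 27.6, 26.1 and 22.7 CPM to 12.9, 13.6 and 8.29 CPM (-1.14 ± 0.18, adjusted p = 0.00463), and Il4ra from 6.86, 6.44 and 6.72 CPM to 3.81, 3.83 and 3.06 CPM (-0.90 ± 0.25, adjusted p = 0.0317). The Il4ra call was lost in each of the fits without SE 2, SE 3, PBS 1, PBS 2 or PBS 3, with adjusted p up to 0.281 over all alternatives. Stat6 had 242, 245 and 248 CPM in PBS and 214, 216 and 243 CPM in SE, and its change of -0.13 ± 0.07 did not pass the test (adjusted p = 0.248). Of the 23 tested genes of this list 2 rose, 2 fell and 19 were not called, with a median of -0.13.

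Among 18 transcription factors linked to alternative activation, 3 rose and 2 fell. Egr2, a factor that Stat6 is known to induce, had 4.14, 2.13 and 2.88 CPM in PBS and 16.7, 11.1 and 13.1 CPM in SE (2.16 ± 0.29, adjusted p = 0.0021). Batf3 rose by 2.78 ± 0.60 (adjusted p = 0.0134) from levels no higher than 0.144 CPM in PBS. Maf fell by 2.63 ± 0.64 on the log2 scale (adjusted p = 0.0197), from 3.94, 2.09 and 1.58 CPM to 0.839, 0.22 and 0.126 CPM, and the histone demethylase gene Kdm6b fell by 0.64 ± 0.15 (adjusted p = 0.0183). The call of Maf was lost without SE 2, SE 3 or PBS 2, and that of Batf3 with DESeq2 and without PBS 2, and Kdm6b was called in 11 of 19 alternatives. Irf4 (0.82 ± 0.28, adjusted p = 0.0633), Pparg (0.40 ± 0.20, adjusted p = 0.18), Myc (0.65 ± 0.44, adjusted p = 0.321) and Klf4 (0.33 ± 0.31, adjusted p = 0.482) were not called. With the replicate number as a block, Irf4 (adjusted p = 0.00319) and Myc (adjusted p = 0.0228) were called as well, which made 5 members higher.

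Some genes of antigen presentation were higher, most of them from very low levels. In the MHC class II list 6 of 15 tested members rose and none fell, although Cd86, a costimulator of T cells, was called lower with the replicate block (-0.91, adjusted p = 0.00723). The list had a median of 0.74, or 0.40 and 4 members with the length and GC trend removed, and without replicate 2 or replicate 3 of all groups 0 members were called higher. Cd74, the invariant chain that carries class II molecules, was the abundant one, with 897, 922 and 769 CPM in PBS and 1420, 2010 and 1810 CPM in SE (1.02 ± 0.12, adjusted p = 0.00113, and 0.71 with the trend removed). H2-Ab1, a class II β chain, had 0.0394, 0.155 and 0.036 CPM in PBS and 1.14, 0.793 and 1 CPM in SE (3.61 ± 0.54, adjusted p = 0.00342), while the α chain H2-Aa, with no more than 1 count in a PBS library, was at least 6.39-fold higher. Ciita, the class II transactivator, rose by 1.67 ± 0.48 (adjusted p = 0.0364), a call that was lost in 12 of 18 alternatives, among them DESeq2, the removal of the trend and each fit without 1 SE or PBS library. Cd274, the checkpoint ligand Pd-l1, rose by 0.93 ± 0.26 (adjusted p = 0.0334) and was called in 12 of 19 alternatives. Ifi30, a lysosomal thiol reductase, rose by 0.74 ± 0.09 (adjusted p = 0.00136) but by 0.40 with the trend removed, which is not past the fold of 1.5. Class II chains and Cd74 are also made by dendritic and B cells. The defining B cell markers Ms4a1 and Pax5 were at 0 in all 9 libraries, the summed B cell markers were 30.4 to 38 CPM in PBS and 19.5 to 26 CPM in SE, and the 8 dendritic cell markers, none of which was at 0 in all 9 libraries, summed to 1.22 to 1.81 CPM in PBS and 1.67 to 2.1 CPM in SE. In such bulk samples, more cells with a transcript and more transcript per cell cannot be told apart.

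C-type lectins, receptors for sugars on microbes and damaged cells, moved both ways. Of 13 tested, 5 rose and 2 fell, and the same numbers held with the trend removed. Besides Mgl2, Mrc1, Clec7a and Clec10a, Clec4a1 rose from 2.8, 3.1 and 2.91 CPM to 7.47, 9.74 and 7.95 CPM (1.51 ± 0.16, adjusted p = 0.000575). The 2 that fell are partners of the same signalling adaptor, Clec4n, or Dectin-2, (-1.36 ± 0.19, adjusted p = 0.0023) and Clec4e, or Mincle, which had 193, 217 and 223 CPM in PBS and 140, 128 and 84.8 CPM in SE (-0.84 ± 0.15, adjusted p = 0.00701). With the replicate block Clec4b1 was called higher too (1.70, adjusted p = 0.0441).

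Among complement genes, 5 of 14 tested rose. C3 had 10.4, 14.8 and 14.1 CPM in PBS and 30.7, 48.6 and 57 CPM in SE, and replicate 1 was the lowest library of each group. The C1q chains stayed below 3.1 CPM, and C1qb (2.23 ± 0.42, adjusted p = 0.00844), C1qc (2.27 ± 0.42, adjusted p = 0.00802) and C1qa (2.44 ± 0.75, adjusted p = 0.0454) rose. C1qa was not called with the trend removed, nor in 5 of the 6 fits without 1 SE or PBS library. Cp, the copper ferroxidase, and Hfe, a regulator of iron uptake, were the 2 of 15 tested iron genes that rose. Cp had 17.7, 21 and 19.9 CPM in PBS and 33, 33.8 and 33.3 CPM in SE (0.77 ± 0.09, adjusted p = 0.00105), with little spread in either group. Ccl6 (2.65 ± 0.35, adjusted p = 0.00181), Ccl7 (2.02 ± 0.60, adjusted p = 0.0399) and Ccl5 (1.12 ± 0.30, adjusted p = 0.028) rose among 11 tested chemokine ligands, and the last 2 lost the call with the trend removed and without SE 2, PBS 2 or PBS 3, Ccl7 also without SE 1 or SE 3. With the replicate block Ccl2, which attracts monocytes, was called higher (0.69, adjusted p = 0.00201). The complement peptide receptor C3ar1 rose (0.60 ± 0.16, adjusted p = 0.0262) and the sphingosine receptor S1pr1 fell (-0.69 ± 0.17, adjusted p = 0.0205) among 11 tested chemoattractant receptors, and with the block Cx3cr1, the fractalkine receptor, was called lower too (-1.34, adjusted p = 0.00263). The calls of C3ar1 and S1pr1 were lost without SE 2, PBS 2 or PBS 3, and that of S1pr1 also without SE 3. Likewise the iron exporter gene Slc40a1 was called lower in that fit (-0.92, adjusted p = 0.00512).

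Inflammatory genes fell in part. Of 11 tested M1 markers and inflammatory cytokines, 3 fell and none rose, with a median of -0.45, and with the replicate block Il23a, a subunit of interleukin 23, was called lower as well (-1.62, adjusted p = 0.00788). Tnf had 36.1, 51.8 and 42.4 CPM in PBS and 12.9, 24.4 and 24.3 CPM in SE (-1.08 ± 0.29, adjusted p = 0.0259), and the call was lost without SE 2, PBS 2 or PBS 3. Tnfsf9, a ligand that costimulates T cells, fell by 0.79 ± 0.13 (adjusted p = 0.00614), and the inducible cyclooxygenase gene Ptgs2 by 1.04 ± 0.23 (adjusted p = 0.0137, but 0.0807 with the trend removed), a call also lost without SE 2 or PBS 2. Nos2, the nitric oxide synthase that marks M1 cells, had 8.28, 3.88 and 2.48 CPM in PBS and 3.39, 6.12 and 7.49 CPM in SE, so the groups overlapped (0.22 ± 0.43, adjusted p = 0.754), and its sign turned without SE 3 or PBS 3. The chemokine gene Cxcl10 was at or under 1.1 CPM in all 6 libraries and was not called (-0.95 ± 0.58, adjusted p = 0.268). Cxcl2, which attracts neutrophils, fell from 33.7, 21.6 and 14.2 CPM to 11, 5.07 and 5.65 CPM (-1.67 ± 0.33, adjusted p = 0.0104), a call that was lost without SE 2.

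Among the sensors of microbial products, Tlr2 and Nlrp3 were lower, both picked by the size of their fall. Tlr2, the receptor for bacterial lipopeptides, had 173, 224 and 235 CPM in PBS and 74, 93.6 and 90.7 CPM in SE (-1.29 ± 0.15, adjusted p = 0.00082). The inflammasome gene Nlrp3 had 30.7, 28.1 and 23.7 CPM in PBS and 9.38, 9.43 and 13.7 CPM in SE (-1.34 ± 0.16, adjusted p = 0.00115). Every PBS library lay above every SE library in both genes. The adaptor gene Tirap fell (-0.69 ± 0.15, adjusted p = 0.0128) and Tlr8, a receptor for single-stranded RNA, rose (1.18 ± 0.33, adjusted p = 0.032). So 1 of 18 tested members of the Toll-like receptor list rose, 2 fell and 15 were not called, with a median of -0.11. Over all genes tested, 3.07% rose and 3.37% fell. The call of Tlr8 was lost in 9 of 19 alternatives, each fit without 1 SE or PBS library among them, and that of Tirap without SE 2, PBS 2 or PBS 3. Of 29 tested NF-κB subunits, inhibitors and targets, Nfkbiz (-1.06 ± 0.18, adjusted p = 0.00622) and Clec4e fell, none rose, and the median was -0.06.

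The interferon-induced genes Ifi44 (-1.01 ± 0.16, adjusted p = 0.00438), Ifi44l (-1.25 ± 0.29, adjusted p = 0.0163), Rsad2 (-0.84 ± 0.26, adjusted p = 0.0466) and Cmpk2 (-0.66 ± 0.21, adjusted p = 0.0488) were the 4 of 26 tested members of the type I interferon list that fell, and none rose. Rsad2 and Cmpk2 were not called with the trend removed or in most fits without 1 SE or PBS library, and Ifi44l was not called without SE 2, PBS 2 or PBS 3. With the replicate block Ifit1 (-0.71, adjusted p = 0.0429) and Mx2 (-0.71, adjusted p = 0.0397) were called as well, which made 6 members lower. The list's median was -0.34, or -0.31 with the trend removed.

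**Figure D3:**
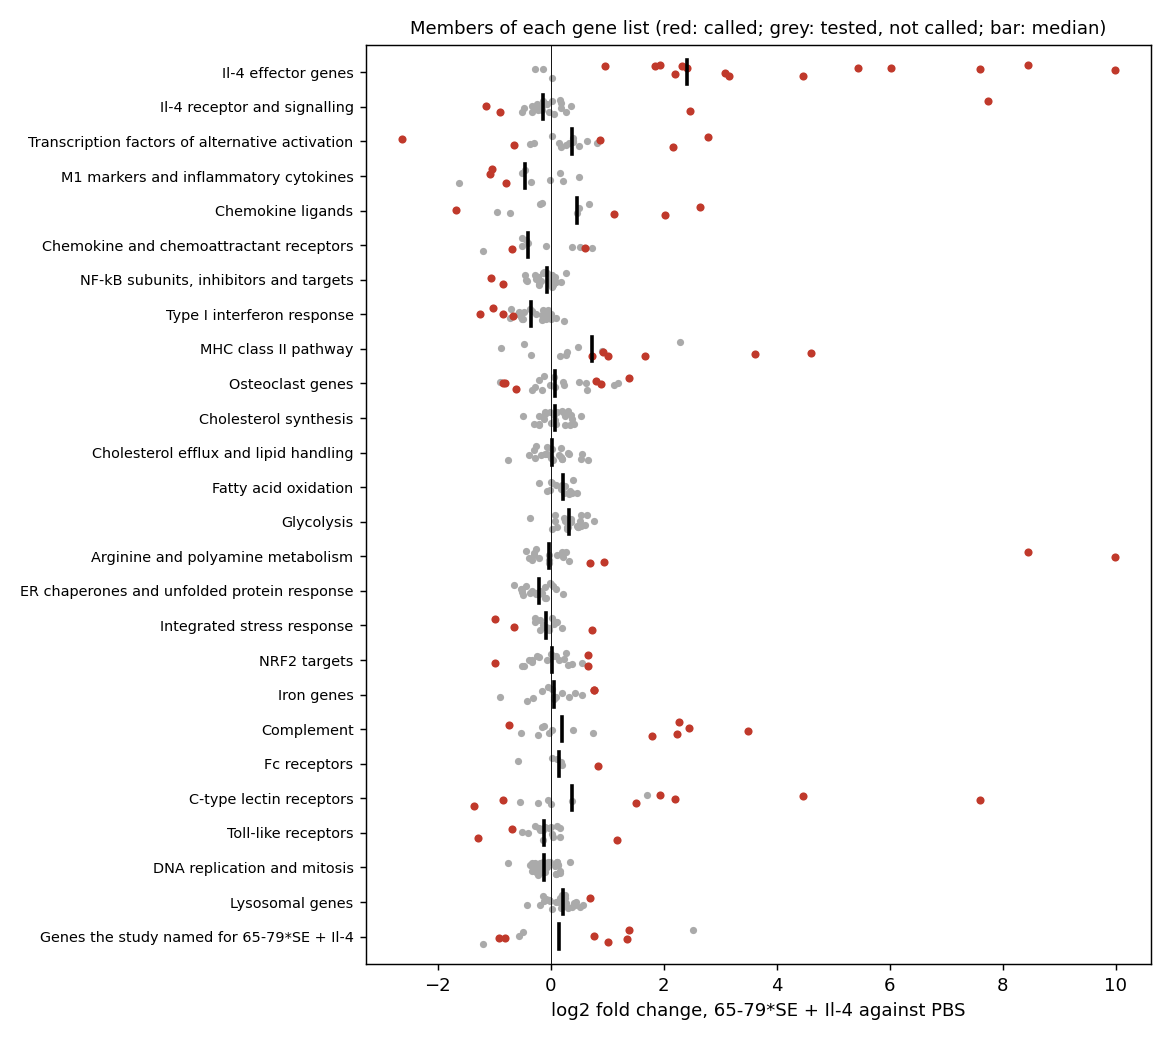
Each point is a tested member of a gene list, placed by its log2 fold change in 65–79*SE with Il-4 against PBS, red where called and grey where not, with a bar at the median. The 17 tested Il-4 effector genes had a median of 2.41, but some of them passed the filter only through the libraries with Il-4, and untested members are not drawn. The points of Slc7a2, Arg1, Cish and H2-Aa rest on 3 or fewer counts in each PBS library, so their place is no estimate of the fold.

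Among the 12 largest falls by the naming rule, the rest were Rapgef5 (-1.40 ± 0.18, adjusted p = 0.0014), Spata13 (-1.24 ± 0.13, adjusted p = 0.000563), Il17ra (-1.19 ± 0.09, adjusted p = 2.53e-05), the transporter gene Slc16a12 (-1.18 ± 0.21, adjusted p = 0.00701), the cofilin phosphatase gene Ssh2 (-1.11 ± 0.17, adjusted p = 0.00342), Rbpsuh-rs3 (-1.11 ± 0.22, adjusted p = 0.0102), whose reads may be shared with its parent gene Rbpj, and Dst (-1.09 ± 0.15, adjusted p = 0.00252), a very large cytoskeletal linker. Il17ra, the receptor chain for interleukin 17, was the most even, with 56.7, 57.1 and 55.2 CPM in PBS and 26.6, 23.4 and 24.1 CPM in SE. It was the 1 fall of the 12 that stayed past an adjusted p of 0.05 in every alternative. Ssh2, with an exon length of 18519 bases, fell by 0.77 and Dst, with 41155 bases, by 0.70 once the length and GC trend was removed. Over the alternatives, 18 of the 795 genes were called in the same direction in each, and these were seen only after the fits were run. Among the 15 that rose were Mrc1, Clec10a, Il4i1, Flt1, Socs1, F10, Cldn11, Azin2, Rnf19b, Dhrs3, Plekhf1, Il20rb, Mgat1 and Lipn, and the 3 that fell were Il17ra, Cd93 and Sema4d. A fit that did not test a gene was counted as not calling it. Mgl2, Arg1 and Cish were called in each of the 18 alternatives that tested them and are missing from these genes for that reason.

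Several programs had no called member (edgeR quasi-likelihood test). These were cholesterol synthesis (24 tested, median 0.08), cholesterol efflux and lipid handling (22, 0.03), fatty acid oxidation (16, 0.22), glycolysis (23, 0.32), chaperones and the unfolded protein response of the endoplasmic reticulum (21, -0.21) and DNA replication and mitosis (31, -0.12). At an unadjusted p under 0.05 they held 8, 3, 10, 16, 12 and 8 members in that order. DESeq2 called 2 glycolysis members higher, and 1 member lower in each of the chaperone and replication lists. With the replicate block Abca1, a cholesterol exporter (-0.89, adjusted p = 0.00189), Dnajb9, a chaperone (-0.69, adjusted p = 0.00612), and Ccne2, a cyclin (-0.72, adjusted p = 0.00687), were called lower, and Fabp4, a fatty acid carrier (0.65, adjusted p = 0.0338), and Tpi1, a glycolytic enzyme (0.63, adjusted p = 0.023), higher. Calr, a chaperone known as a binding partner of the shared epitope, had 3890, 4000 and 3950 CPM in PBS and 3950, 4280 and 4440 CPM in SE (0.10 ± 0.08, adjusted p = 0.413). Of 28 tested lysosomal genes only Tfeb, their transcriptional regulator, was called (0.69 ± 0.10, adjusted p = 0.00283). Osteoclast genes moved both ways, 3 higher (Mmp9, Ctsk and Ckb) and 3 lower (Nfatc1, Fosl1 and Itgav) of 22 tested, and Ctsk and Mmp9 were not called with the trend removed. With the replicate block 6 were higher, among them Atp6v0d2, a subunit of the proton pump (1.22, adjusted p = 3.77e-05), and Dcstamp, which is needed for cell fusion (0.72, adjusted p = 0.00499). The integrated stress response (Atf3 higher, Aldh1l2 and Slc7a11 lower of 17), the Nrf2 targets (Mt1 and Mt2 higher, Slc7a11 lower of 20) and the Fc receptors (Fcgrt higher of 6, and Fcgr1 lower with the block) had no called member once the trend was removed. Of 10 genes that the study itself named for 65–79*SE with Il-4, 4 were higher (Adamtsl5, Mmp9, Cd74 and Lat) and 2 lower (Rnase4 and Stk17b). This is not independent evidence. The study chose them as unique to this peptide, on 6 replicates that include these samples. All 10 had an unadjusted p under 0.05 (edgeR), and the replicate block added Cd84 higher and Cx3cr1 lower. Mmp9, Lat and Rnase4 lost the call in some fits without 1 SE or PBS library, and Mmp9 and Lat also with the trend removed.

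Short genes tended to be higher and long genes lower. From the shortest to the longest of the 5 bins, the median log2 fold change was 0.26, 0.09, -0.02, -0.10 and -0.25. The shortest bin held 195 genes called higher and 20 called lower, and the longest 28 and 215. GC content moved with the change too, with medians of -0.26 in the lowest of 5 bins and 0.17 in the highest. Of 88 tested ribosomal protein genes 9 rose and none fell, and their median was 0.47, or 0.27 with the trend removed. Rpl41, for example, had 1010, 916 and 890 CPM in PBS and 1220, 1710 and 1480 CPM in SE, in which SE 2 was highest. Pseudogenes, which can share reads with their parents, made up 59 of the genes called higher (12.3% of 478 tested) and 1 of those called lower. In replicates 4–6 of the same groups the median in the 5 bins of length was -0.01, -0.06, -0.05, -0.04 and 0.03, a much flatter run. Their medians in the 5 bins of GC content were 0.09, 0.04, -0.02, -0.10 and -0.20, which ran the opposite way to replicates 1–3. With the trend removed in replicates 1–3, 225 genes were called higher and 173 lower, and 326 genes were called in both fits. The part of length and GC content in single falls was not tested.

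**Figure D4:**
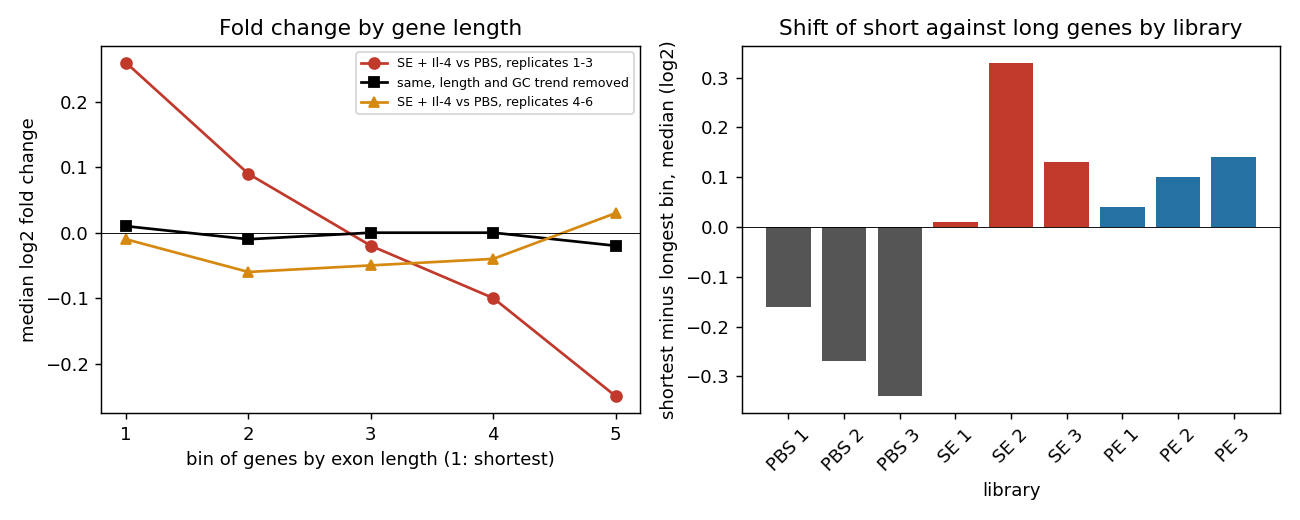
The left panel gives the median log2 fold change (vertical axis) in 5 bins of genes by exon length for replicates 1–3 as counted, for replicates 1–3 with the trend removed and for replicates 4–6. The right panel gives, per library, the median of the shortest minus that of the longest bin relative to all 9 libraries, from -0.34 in PBS 3 to 0.33 in SE 2.

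The same contrast in replicates 4–6, which share no library with replicates 1–3, asked which of these changes were seen again. The PBS and SE libraries of the 2 sets were unlike in make-up. Histone genes took 0.00553% to 0.0139% of the counts in replicates 1–3 and 0.338% to 1.55% in replicates 4–6. Protein-coding genes took 94.9% to 97% in replicates 1–3 and 78.4% to 87.1% in replicates 4–6. The part of this in changes not seen again was not tested. In replicates 4–6, 141 of 13472 genes were called (1.05%), 105 higher (0.779%) and 36 lower (0.267%). Of the 379 upregulated genes 346 were tested in replicates 4–6, where 272 (78.6%) had the same sign and 59 were called in the same direction. Of the 416 downregulated genes 412 were tested there, 202 (49%) had the same sign and 13 were called in the same direction. No gene was called in opposite directions in the 2 sets of replicates. The Il-4 effector list had a median of 2.19 in replicates 4–6 with 12 of 16 tested members higher, and the type I interferon list had a median of 0.22 with no member called. In the MHC class II list 10 of the 15 members tested in replicates 1–3 were tested there. Their median was 0.14 with 1 member higher, and it covers other members than the median in replicates 1–3.

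Mgl2 gave a log2 fold change of 7.74 in replicates 4–6 (adjusted p = 1.19e-05), Mrc1 one of 4.17 (adjusted p = 0.000355) and Igf1 one of 2.78 (adjusted p = 0.00141), and the difference from replicates 1–3 did not pass the test for any of these 3 genes. Ptgs1 was the 1 of the 12 named rises that did not pass the test there (1.26, adjusted p = 0.12). Of the named falls only Tlr2 (-1.0, adjusted p = 0.0102) and Il17ra (-1.43, adjusted p = 0.00135) passed it. Rapgef5 (0.17, adjusted p = 0.706), Dst (0.17, adjusted p = 0.686) and Rbpsuh-rs3 (0.38, adjusted p = 0.293) had the opposite sign without passing it.

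The difference between the sets of replicates was tested in 1 model of all 18 libraries of the table. It passed an adjusted p of 0.05 and a fold of 1.5 for 554 of 14183 genes (3.91%), 106 with the higher log2 fold change in replicates 1–3 (0.747%) and 448 with the lower (3.16%). Of the genes called in replicates 1–3 the difference passed an adjusted p of 0.05 for 16 of the 379 that rose and 165 of the 416 that fell. Over all genes it passed that adjusted p for 622 of 14183. The called genes were chosen on libraries that this test uses again, so these 2 shares are no separate evidence of a difference. The count of 554 changed with single libraries and with the length gradient. Without PBS 3 it was 0, without PBS 2 it was 50, without SE 2 it was 21, without SE 3 it was 91, without SE 4 it was 139, without SE 1 it was 1656 and without SE 6 it was 1238, it was 1 with the trend removed, and it was 1 when only the 12 SE and PBS libraries were fitted.

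Against 65–79*PE with Il-4, the 1 comparison in which both groups carry Il-4 on the label, no gene was called. The smallest adjusted p was 0.878, 557 of 12350 genes had an unadjusted p under 0.05, and DESeq2 also called 0 genes, with 571 under 0.05 unadjusted. Leaving out replicate 1 of all groups gave 6 called genes and omitting the filter on low counts gave 15. The number of genes with an unadjusted p under 0.05 moved with the fit. It was 1300 with the replicate block and 2376 without SE 1, both with 0 genes called. Without replicate 1 of all groups it was 2463 of 12311, and without replicate 2 or replicate 3 it was 107 and 98. The 95% interval of the difference lay within a fold of 1.5 in both directions for 8563 genes (69.3%), and for 427 of the 795 genes that differed between SE and PBS (53.7%), so for the others a larger difference was not excluded by these libraries. For Mgl2 the difference of SE minus PE was -0.32, with an interval from -0.60 to -0.03 before adjustment over genes, on 64.4, 48.8 and 51.5 CPM in SE against 78.5, 60.9 and 65.9 CPM in PE.

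Set beside the same 3 PBS libraries, 65–79*PE with Il-4 gave 488 called genes (3.95%), 285 higher (2.31%) and 203 lower (1.64%). Since the contrasts share these PBS libraries, only their own values are given side by side. Mgl2 had a log2 fold change of 7.60 with SE and 7.92 with PE, Arl4c 1.67 and 1.88, F10 1.99 and 1.69, Tlr2 -1.29 and -1.14, and Il17ra -1.19 and -1.47. Mmp12, with 55.4, 39 and 35.5 CPM in SE and 76.4, 19.5 and 21.3 CPM in PE, was one of the genes in which PE 1 stood far above PE 2 and PE 3. The effector list had 14 members higher in either contrast, with a median of 2.41 for SE and 2.55 for PE.

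**Figure D5:**
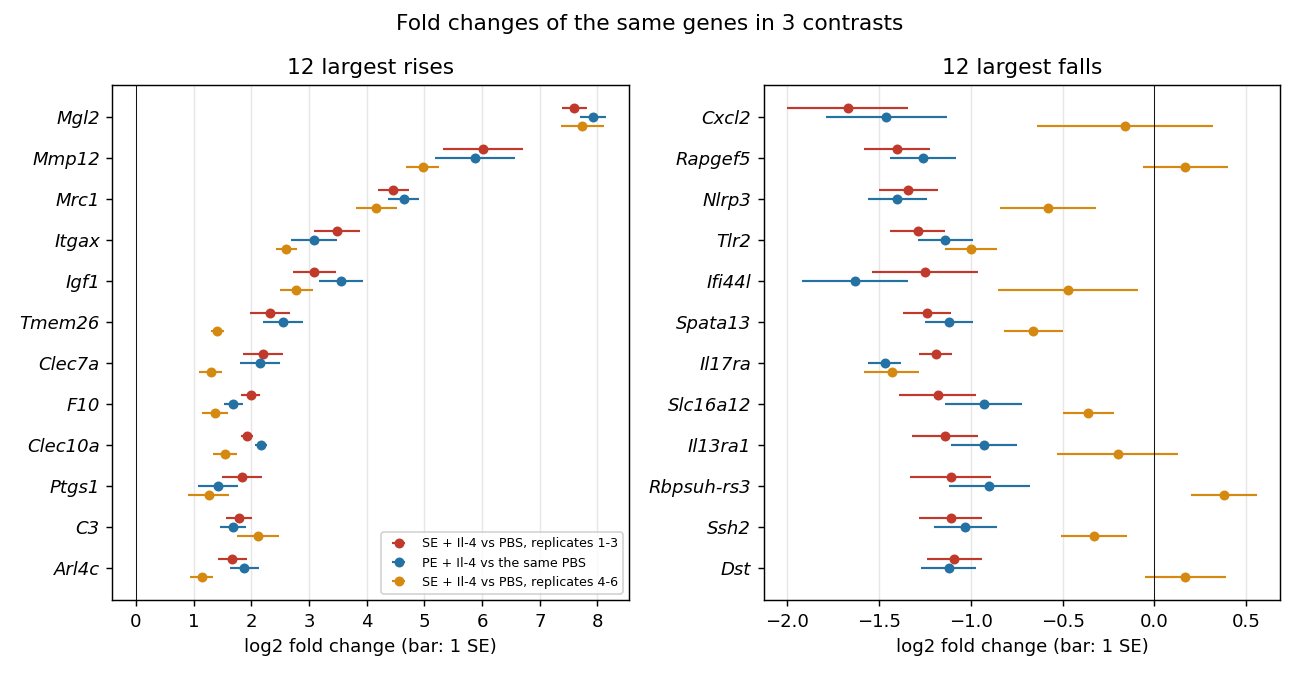
Points give log2 fold changes with 1 standard error for the 12 largest rises and 12 largest falls, in SE with Il-4 against PBS (red, which chose the genes), in PE with Il-4 against the same PBS libraries (blue) and in SE with Il-4 against PBS in replicates 4–6 (orange). All 12 rises are above 0 in replicates 4–6, from 1.14 for Arl4c to 7.74 for Mgl2, whereas Rapgef5, Dst and Rbpsuh-rs3 lie above 0 there among the falls.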

How the data were processed

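The members, gene lists and naming rule were chosen with earlier results of these data known. Per the labels and the study's methods, RNA was isolated with Trizol, poly(A) libraries were made with a TruSeq kit and sequenced as single-end reads, and the authors took reads that aligned to a single place and counted them per gene with featureCounts on GENCODE annotation (the submitters' processing notes name GRCm38.p5, DESeq2 1.16.1 and R 3.4.1). The aligner and the strand setting are not given in the sources used here. The deposited values were whole-number counts, not normalized, for 49568 gene names in 18 libraries. Of these, 47181 (95.18%) were single symbols in GENCODE M21 of GRCm38, which gave classes, lengths and positions. A spreadsheet had turned 26 names into dates, which were left as given.

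Replicates 1–3 of PBS, 65–79*SE and 65–79*PE (9 libraries) were fitted with edgeR 4.0.16 in R 4.3.3 (glmQLFit and glmQLFTest, TMM, filterByExpr, group only), with Benjamini-Hochberg adjustment over the genes tested. Called means an adjusted p under 0.05 and a fold over 1.5, the study's thresholds. Replicates 4–6 were fitted alone, and the difference in 1 model of 18 libraries. The fits were tested on simulated data. CPM used TMM library sizes. A PBS group at or under 3 counts in each library was set to 3 counts per library, and folds against it are lower bounds. The length and GC trend was a smooth curve per library (4 degrees of freedom), for the 97.2% of tested genes with a length. The study describes 6 biological replicates in 2 independent experiments, so replicates 1–3 cannot be 3 independent experiments. The p-values measure the spread between these libraries and not that between experiments. Replicates of a group differed beyond sampling noise. For the replicate block, the replicate numbers were taken to pair the libraries of replicates 1–3, while the main fit leaves any pairing out. Deviations from group means correlated at 0.18 to 0.62 across genes in all 9 same-numbered pairs (-0.52 to 0.37 otherwise). The pairing was clearest for replicate 1, and among replicates 2 and 3 some differently numbered pairs correlated more than same-numbered ones. Alternatives were RLE size factors, DESeq2 1.42.0, other filters and sets of libraries, the replicate block, protein-coding genes only and leaving out libraries. Leaving out a replicate number and removing the trend were added after the data were seen.

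Named genes were the 12 largest rises and falls with a mean of at least 10 CPM and no overlap, up to 5 genes each way of the differences from 65–79*PE and between sets of replicates, up to 4 called members of each list, and Arg1, Chil3, Mgl2, Ccl17, Stat6, Il4ra, Calr, Nos2, Tnf and Cxcl10. Any other gene in the text was picked with its values in view. Fibroblast and stromal markers summed to no more than 1.44 CPM and T and NK cell markers to no more than 12.2 CPM in any of the 6 libraries. Results for a few genes are not reported here.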

Additional observations from a re-analysis of the deposited data

Results flagged for a closer look

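The change of SE with Il-4 against PBS differed between replicates 1–3 and replicates 4–6 for 554 genes by the test of the difference itself. Of the genes considered here, 16 were among them. The naming rule picked Hist1h2al, Gamt, Evl, H2afx, Ier2, Gm43197, Gdap10, Rapgef5, Kcnq1ot1 and Rbpsuh-rs3 by this same test. Rapgef5 and Rbpsuh-rs3 were also named as largest falls. The number 16 is therefore no separate evidence of a difference. Each value below is the log2 fold change in replicates 1–3 minus that in replicates 4–6. It was positive for Hist1h2al (1.84), Gamt (1.22), Evl (1.08), H2afx (1.06), Ier2 (1.03), Tfeb (0.84) and Ckb (0.75). It was negative for Gm43197 (-2.13), Gdap10 (-1.77), Rapgef5 (-1.61), Kcnq1ot1 (-1.59), Rbpsuh-rs3 (-1.54), Dst (-1.31), Aldh1l2 (-1.24), Itgav (-0.93) and Cp (-0.86). Gamt, the last enzyme of creatine synthesis, had 10.7, 11.8 and 10.6 CPM in PBS 1, 2 and 3 and 15.7, 26.7 and 23.5 CPM in SE. In the separate fits of each set, Evl, an actin regulator, rose by 1.35 ± 0.20 in replicates 1–3 (adjusted p = 0.00342) and by 0.22 in replicates 4–6 (adjusted p = 0.431). Cp rose in both fits, by 0.77 and by 1.59. H2afx and Ier2 were not called in replicates 1–3 (0.22 and 0.04), and their signs turned to -0.12 and -0.31 with the length and GC trend removed. The 16 differences come from the model of 18 libraries, in which no gene was past the thresholds once PBS 3 was left out. In PBS and SE, histone genes took 0.00553% to 0.0139% of the counts in replicates 1–3 and 0.338% to 1.55% in replicates 4–6.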

How the results depend on the processing

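In SE with Il-4 against PBS, the counts stayed within 1.5 times of 795 with RLE size factors, DESeq2, either filter on low counts, protein-coding genes only, the 6 libraries alone and all 18 libraries. With all 18 libraries 280 were higher and 595 lower. With the replicate block 1068 genes were called (484 higher, 584 lower), 787 of them shared with the 795. Of the genes chosen by the naming rule, the block brought Gdap10 (-1.10) and Kcnq1ot1 (-1.13) past an adjusted p of 0.05 and changed no other call. With the length and GC trend removed, 398 genes were called (225 higher, 173 lower). Fits that left out libraries gave 27 to 1904 genes (24 to 834 higher, 3 to 1070 lower), and a group left with fewer libraries was assumed to vary like the others.

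For SE against PE, omitting the filter called 15 genes (4 higher, 11 lower), and leaving out libraries called 0 to 6 (0 to 4 higher, 0 to 2 lower). For the difference between the sets of replicates, the count was 1043 with DESeq2 (282 higher, 761 lower), 1353 without a filter (556, 797) and 1 with the 12 SE and PBS libraries or with the trend removed (0 higher, 1 lower in both), and protein-coding genes alone gave 205 higher. Leaving out libraries gave 0 to 1656 (0 to 435 higher, 0 to 1232 lower). The numbers of replicates 4–6 paired their libraries less clearly (correlations of -0.14 to 0.58, and -0.59 to 0.3 for differently numbered pairs). Same-numbered PBS and SE libraries gave 0, -0.14 and 0.27, PBS and PE 0.52, 0.26 and 0.58, and SE and PE 0.47, -0.04 and 0.56. With the replicate block 447 genes were called in replicates 4–6 (221 higher, 226 lower) and 1555 for the difference (518 higher, 1037 lower). The cause of these shifts was not tested.

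Of the named genes, H2afx turned to -0.12 with the trend removed and to -0.11 with trend and block. Ier2 turned to -0.31 with either, to -0.01 with 18 libraries, and ran from -0.07 to 0.20 without single libraries or replicates. Nos2 ran from -0.36 to 1.11 in those fits. With at least 10 counts required in every library, Il-4 effector genes called higher numbered 9, fewer being tested, and without replicate 2 or replicate 3 they were 7 and 8. In the same pair of fits, no member of the MHC class II, transcription factor or osteoclast lists was called higher.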
